A study of Nothobranchius furzeri with 20 samples.

Results

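The 10 skin libraries from 27-week-old turquoise killifish (Nothobranchius furzeri) were compared within their shared label, 10 of 20 libraries in the series. Libraries were assigned by title, and the division was made with earlier results of these data known. The titles JM132 to JM136 form an unbroken run of 5 libraries, and JM140 to JM144 form another run of 5. By the labels, every fish of both runs was a male of the strain MZM-04/10p, 27 weeks old and exercised in a swim tunnel. Such a tunnel is a chamber in which a fish swims against a current. The labels name no difference between the runs, and no fish of that age is labelled unexercised. A treatment or an error that the labels leave out cannot be told apart from any other difference between the runs. Each library was taken as 1 fish. Nothing in the labels says that the 10 libraries came from separate animals. The p-values below therefore set the difference between the runs against the variation between these libraries.

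The turquoise killifish is an annual fish of seasonal ponds in Africa, and its short life has made it a model of vertebrate ageing. Fish skin is a living epidermis of keratinocytes, mucous cells and ion-transporting cells over a collagen-rich dermis that holds scales, pigment cells, vessels and nerves. Bulk RNA from such a tissue averages over all of these, so fewer cells of a type and less RNA per cell cannot be told apart. The deposited table identifies genes by identifier alone, and 0 of 26739 identifiers matched the reference gene table. Neither the skin label nor any cell type could therefore be checked against marker genes, and no gene below is given a name or a function. Genes are described by level, length, size of change and the fish in which they moved.

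Counted reads totalled 20597690 to 38619614 in JM132-JM136 and 24770446 to 31594796 in JM140-JM144. The mean totals were 31503458 ± 7248520 counts in JM132-JM136 and 28754449 ± 2748735 in JM140-JM144 (SD, n = 5 each), a difference that did not pass the test (p = 0.452 in a two-sided exact permutation test of 5 against 5, or 0.543 when adjusted over 6 library measures). After every library was thinned to the smallest total, 20702 to 21137 genes had a count in JM132-JM136 and 20914 to 21179 in JM140-JM144. JM141 stood apart from the other 4 libraries of its run. Its Pearson's r with them, across 18306 genes of log2 CPM (reads scaled to a common library size), was 0.928 to 0.938, and those 4 correlated with each other at up to 0.980. Genes share a library and are not independent replicates, so these values are descriptions. Several results that rest on JM141 are given with and without it.

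The runs separated along the main axis of variation among the 10 fish. The first principal component held 38.0% of the variance. JM132-JM136 lay between -54.1 and -36.9 on it, and JM140-JM144 between 37.7 and 53.5. With JM141 left out the component held 44.2%, and the remaining fish lay between -52.0 and -26.6 in JM132-JM136 and between 50.9 and 58.1 in JM140-JM144. The second component held 20.3% and spread the fish inside the runs. JM132-JM136 ranged from -44.9 in JM134 to 36.6 in JM133. In JM140-JM144, 4 fish lay between -20.7 and -15.0 and JM141 lay at 85.6. Each of the 10 libraries was most like a library of its own run.

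**Figure D1:**
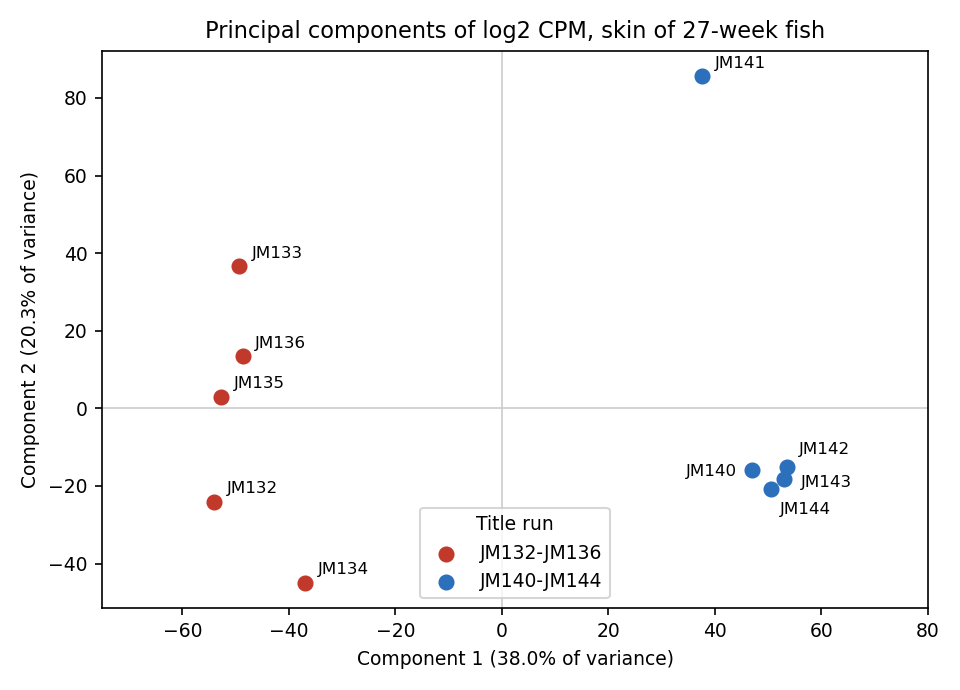
Position of each of the 10 fish on the first component (x axis) and the second (y axis) of log2 CPM over 18306 genes, 1 point per fish, coloured by title run. The runs do not overlap on the first component, and JM141 lies alone at 85.6 on the second.

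The comparison between the runs asked how far skin RNA can differ among fish that share strain, sex, age and exercise in the labels. Slightly more genes were higher in JM132-JM136 than were lower. Of 18306 genes tested, 7613 differed (41.6%) in edgeR's quasi-likelihood test at a Benjamini-Hochberg adjusted p under 0.05. There were 3889 higher in JM132-JM136 (21.2%) and 3724 lower (20.3%). Most of the differences were modest. The median size among called genes was 0.78 on the log2 scale, a 1.72-fold change, and 68.8% of called genes changed by less than 2-fold. Changes of more than 2-fold were called for 1180 genes higher (6.45%) and 1199 lower (6.55%) in JM132-JM136. Those of more than 4-fold were called in 0.65% of genes (higher) and 0.727% (lower), and those of more than 8-fold in 8 genes higher and 29 lower. Without JM141 the shares above 4-fold were 1.02% higher (189 genes) and 0.732% lower, so the first of them moved by over 1.5 times with that library.

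The split into higher and lower depended on how libraries were scaled. Libraries were scaled by TMM, which sets the bulk of the genes level, and the median log2 fold change of all genes tested was then -0.05. The TMM factors averaged 1.11 ± 0.0855 in JM132-JM136 and 0.906 ± 0.0496 in JM140-JM144 (n = 5 each, SD; p = 0.00794 in the exact permutation test, 0.0238 adjusted), without overlap between the runs. With library totals alone, that median was 0.24, a shift of 0.29, and 5869 genes were called higher and 1643 lower in JM132-JM136. Higher genes made up 78.1% of calls under this scaling and 51.1% of them under TMM. DESeq2's size factors gave 51.8%, with 3933 higher and 3653 lower. All directions below are relative to the bulk of the genes, as TMM sets it.

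All 5 fish of JM132-JM136 lay above, or all below, all 5 of JM140-JM144 for 5575 genes, 30.5% of those tested. JM132-JM136 lay above for 3123 genes (17.1%) and below for 2452 (13.4%). Of the called genes, 79.4% of those higher in JM132-JM136 and 64.6% of those lower had no overlap between runs. JM141 was left in for these shares, and their difference between directions was not tested. Among the changes above 4-fold these shares were 93.3% of the higher and 85.0% of the lower genes. Above 8-fold they were smaller, at 5 of 8 higher genes (62.5%) and 22 of 29 lower genes (75.9%). The fish overlapped in 2117 called genes, and 79 genes separated the runs without being called.

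The differences were of degree at the limits used here, which had to hold in every fish. With 14717 genes at 1 CPM or more in all 10 fish, 27 genes reached 1 CPM in all fish of JM132-JM136 and stayed under it in all of JM140-JM144, and 34 showed the opposite. When the low run had to stay under 0.25 CPM in all its fish, 0 genes met the condition in either direction. These are listings of levels, with no test.

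The 4 identifiers below had, among called genes without overlap, the largest differences of mean CPM in each direction. Nfu_g_1_008461 had 462.1, 503.3, 386.9, 589.0 and 513.4 CPM in JM132 to JM136, against 99.0, 108.0, 67.1, 94.0 and 113.7 CPM in JM140 to JM144. The runs did not overlap, with JM134 the lowest fish of JM132-JM136 and JM144 the highest of JM140-JM144. It averaged 490.9 ± 74.0 CPM in JM132-JM136 and 96.4 ± 18.1 CPM in JM140-JM144 (SD, n = 5 each). The log2 fold change was 2.35, with a standard error of 0.168 and an edgeR adjusted p of 5.94e-06. Its recovered length was 3.10 kb.

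Nfu_g_1_000192 was higher in JM132-JM136 as well, with 637.7, 647.7, 615.5, 321.0 and 530.1 CPM in JM132 to JM136, against 251.98, 147.5, 223.9, 165.3 and 130.2 CPM in JM140 to JM144. JM135 was the low fish of its run and still above every fish of the other. The means were 550.4 ± 136.3 CPM in JM132-JM136 and 183.8 ± 51.9 CPM in JM140-JM144 (SD, n = 5 each). They gave a log2 fold change of 1.58 with a standard error of 0.239 (edgeR adjusted p = 0.000441). Its length was 4.15 kb.

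Nfu_g_1_008116 was lower in JM132-JM136, with 2766, 3474, 3332, 2012 and 1736 CPM in JM132 to JM136, against 6476, 5865, 3943, 3506 and 5336 CPM in JM140 to JM144. The runs nearly touched under TMM, at 3474 CPM in JM133 and 3506 CPM in JM143. By library totals alone they overlapped. JM133 had 100033 of 27887692 reads and JM143 had 103132 of 30616754, a smaller share. The gene averaged 2664 ± 775 CPM in JM132-JM136 and 5025 ± 1263 CPM in JM140-JM144 (SD, n = 5 each). Its log2 fold change was -0.92 ± 0.240 (standard error, edgeR adjusted p = 0.0107). The gene measured 2.58 kb.

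Nfu_g_1_012319 was lower too, with 3322, 3911, 3557, 3969 and 3039 CPM in JM132 to JM136, against 6227, 5891, 5634, 4498 and 5006 CPM in JM140 to JM144. Its means of 3560 ± 393 CPM in JM132-JM136 and 5451 ± 695 CPM in JM140-JM144 (SD, n = 5 each) gave a log2 fold change of -0.61 ± 0.129 (standard error; edgeR adjusted p = 0.00313). Its length was 1.39 kb. The runs did not overlap, with JM135 the highest fish of JM132-JM136 and JM143 the lowest of JM140-JM144. The gene had 75782 to 161906 reads in JM132-JM136 and 116708 to 169182 in JM140-JM144.

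**Figure D2:**
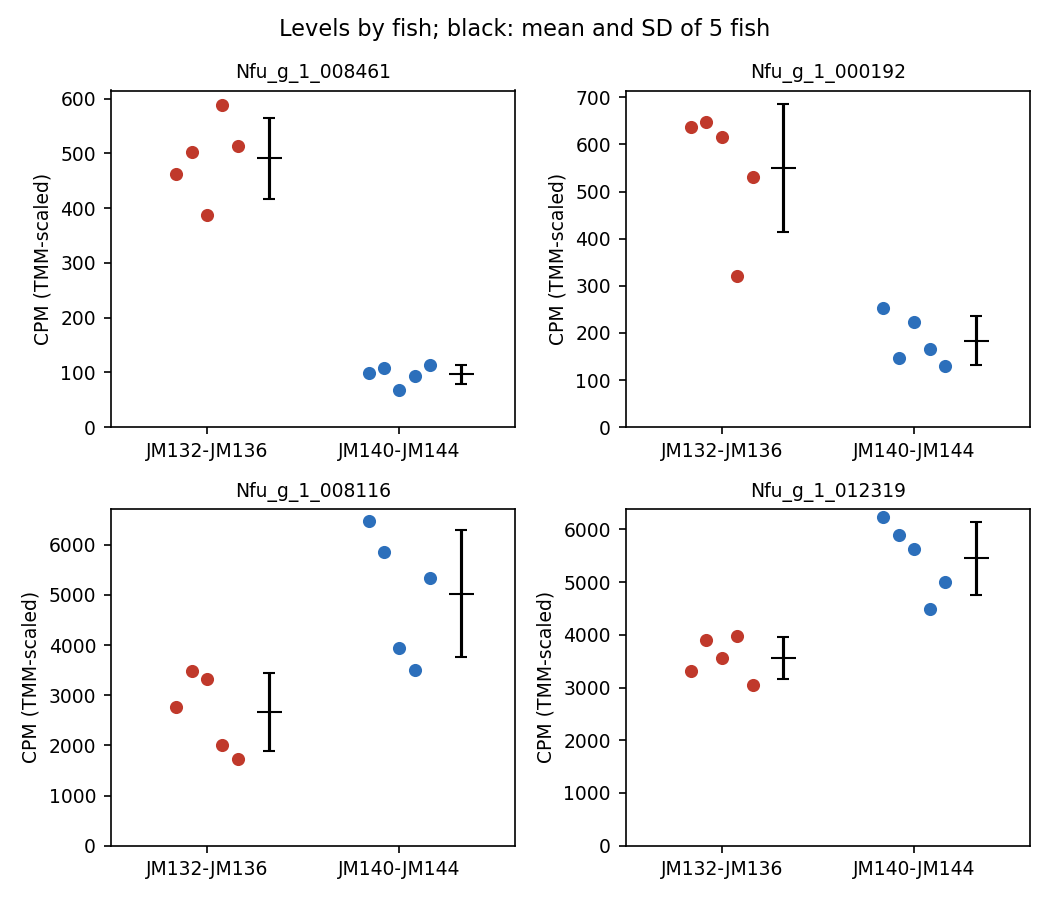
TMM-scaled CPM of the 4 identifiers in each of the 10 fish (y axis, from 0), with JM132-JM136 left of JM140-JM144; points are fish in title order and black marks are the mean and SD of 5 fish. Relative to its level Nfu_g_1_008461 shows the widest gap (386.9 CPM in JM134 and 113.7 CPM in JM144), and Nfu_g_1_008116 leaves almost none between JM133 and JM143.

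Many of the most heavily read genes were lower in JM132-JM136. Of the 100 genes with most reads (mean 1504 to 38639 CPM), 61 were called lower and 0 were called higher, and the rest did not pass the test, against 41.6% called in either direction among all genes. The list was drawn after the data were seen, and it is described here without a test. Its median log2 fold change was -0.56, against -0.05 over all genes tested. The log2 fold change was below 0 in 93 of the 100 genes and ranged from -1.30 to 1.34. The middle of this range was narrow. Its quartiles lay at -0.61 and -0.49, a width of 0.12, where the same width over all tested genes was 0.90. All tested genes reached down to 0.270 CPM, where counting noise is greater, and no width was taken at a matched level. In every fish of JM132-JM136 the median gene of the list lay below its mean over the 10 fish, by -0.15 in JM133 to -0.37 in JM136 on the log2 scale. In every fish of JM140-JM144 it lay above, by 0.20 in JM143 to 0.43 in JM140.

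The pattern was the same when genes were ranked per length. Of the 100 genes with most reads per kb, 71 were called lower and 0 higher, with a median of -0.55 and a width of 0.09 between quartiles. These genes were short, with a median length of 0.821 kb against 2.73 kb over all genes tested, and 67 genes stood in both lists. With library totals in place of TMM, 20 of the 100 with most reads were called lower. Of those with most reads per kb, 26 were called lower, and 0 of either list were called higher. Of all 18306 genes tested, 7512 were called under that scaling, 5869 of them higher and 1643 lower. The median of the first list was then -0.27, against 0.24 over all genes tested. Leaving out JM141 or JM143 brought 1 call of a higher gene among the 100 with most reads.

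The share of counts held by the 100 highest genes of each library was lower in JM132-JM136. This share, the TMM factors and the calls among the most read genes come from the same counts. They are not independent results. A library's own 100 highest genes took 38.4% ± 2.63 of counts in JM132-JM136 and 43.3% ± 2.80 in JM140-JM144 (SD, n = 5 each), a difference of -4.94 percentage points (p = 0.0238 in the two-sided exact permutation test, 0.0476 when adjusted over 6 measures). JM132-JM136 ranged from 34.1% in JM136 to 41.3% in JM133, and JM140-JM144 from 40.1% in JM143 to 47.0% in JM141, so the runs overlapped. This call ended when any 1 of 9 fish was left out, with JM133 the exception (adjusted p = 0.0635 to 0.0952 in that test). With 4 against 5 fish fewer splits exist and the smallest possible p is larger. Losing the call is therefore no sign by itself of a smaller difference. Over these fits the difference ranged from -5.73 to -3.87 points, and it was -4.02 without JM141. The share of the 10 highest genes was 16.5% ± 1.42 in JM132-JM136 and 17.6% ± 2.08 in JM140-JM144 (n = 5 each, exact permutation p = 0.444, or 0.543 adjusted).

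**Figure D3:**
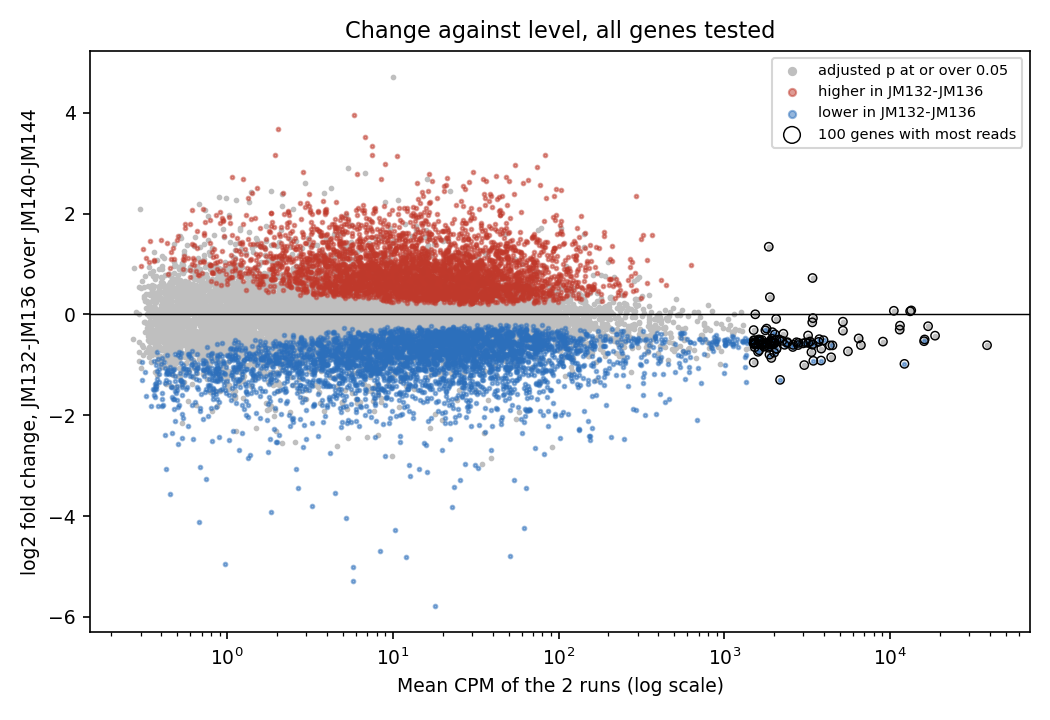
Log2 fold change of JM132-JM136 over JM140-JM144 (y axis) against mean CPM on a log axis, 1 point per gene for 18306 genes, coloured by edgeR call, with the 100 most read genes circled. The circled genes range from -1.30 to 1.34 around a median of -0.56, 93 of them lie below 0, and 61 were called lower.

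At middle levels more genes were higher than lower in JM132-JM136, and at the lowest and highest levels fewer were. Tested genes were ranked by mean CPM, which follows reads and not reads per length, and divided into 10 deciles. In decile 1, the lowest (median 0.625 CPM), 82 genes were called higher and 223 lower. Its genes averaged 0.270 to 1.02 CPM, near the floor of the expression filter, which a gene can pass through a single run. Whether this shaped the split was not tested. In decile 6 (median 13.5 CPM), 541 were called higher and 359 lower. In decile 10 (median 119.9 CPM), 308 were called higher and 578 lower. The share called in either direction was 16.7% in decile 1 and 52.0% in decile 9, which held the highest share. With library totals alone, higher calls outnumbered lower ones in all 10 deciles, with 152 and 98 in decile 1, 787 and 168 in decile 6 and 460 and 232 in decile 10. Higher genes then made up 82.5% of calls in decile 8 and 82.4% in decile 6, the greatest shares, and 60.8% in decile 1 and 66.5% in decile 10.

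**Figure D4:**
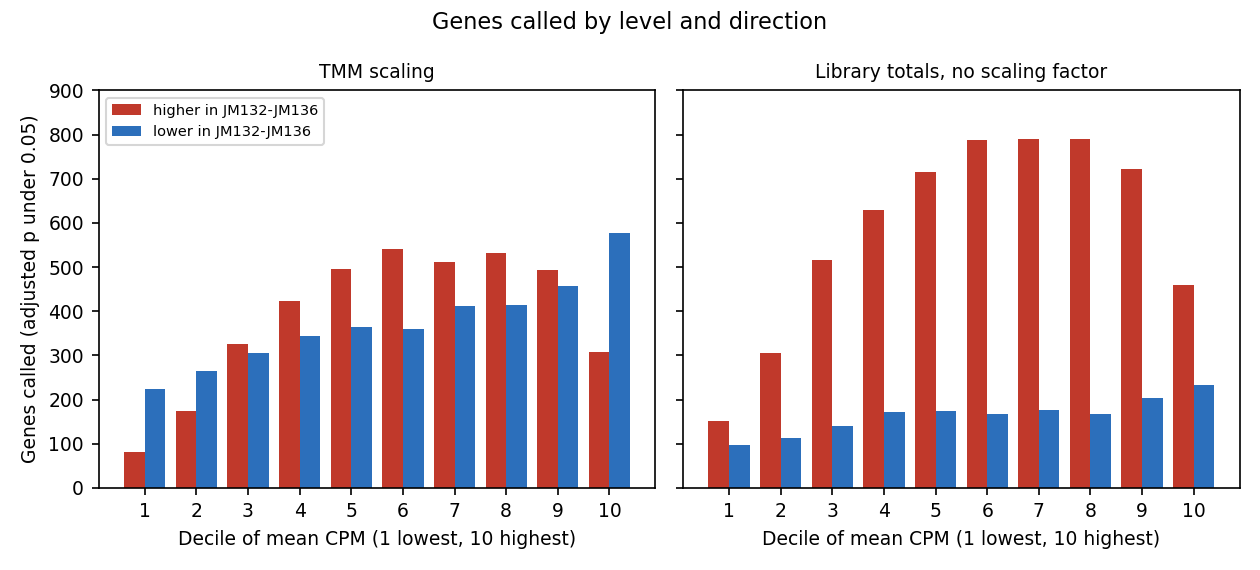
Genes called higher (left bar) and lower (right bar) in JM132-JM136 by decile of mean CPM, under TMM scaling and under library totals alone. Under TMM deciles 1, 2 and 10 held fewer higher than lower calls (82 and 223, 175 and 265, 308 and 578); under library totals no decile did.

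Long genes were lower in JM132-JM136 relative to short ones. Gene lengths came from the ratio of deposited counts to RPKM. Tested genes were divided by length into 4 equal bins. In the longest bin, with a median of 6.52 kb, 821 genes were called higher and 1202 lower, with a median log2 fold change of -0.15. In the other bins, with medians of 0.816, 2.00 and 3.58 kb, 992, 989 and 1087 were higher and 818, 800 and 904 lower, with medians of -0.00372, -0.00595 and -0.02. Length and level went together, so the split was repeated in genes of deciles 5 to 8 by level. There the longest bin, now of 1919 genes, had 427 higher and 505 lower calls (48.6% called). The shortest, of 1481 genes, had 460 higher and 276 lower (49.7% called). Level was not fully matched, with a median of 19.5 CPM in the longest bin and 13.9 CPM in the shortest. Under library totals, which shifted the median of all genes by 0.29, the split within the longest bin flipped to 1309 higher and 539 lower. Higher calls were 70.8% of calls in that bin, against 79.2% to 81.7% in the other bins.

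The length trend could be read in each library. Each gene's log2 CPM was set against its mean over the 10 fish. The slope of this deviation on log2 length averaged -0.0173 ± 0.0154 in JM132-JM136 and 0.0173 ± 0.00977 in JM140-JM144 (SD, n = 5 each). Deviations from a mean of the same 10 fish make the run means mirror each other. Only their difference of -0.0347 carries information. All 5 slopes of JM132-JM136 were below all 5 of JM140-JM144, with -0.0421 to -0.00561 in JM132-JM136 and 0.00368 to 0.0307 in JM140-JM144 (p = 0.00794 in the two-sided exact permutation test, the smallest it can give, and 0.0238 adjusted). Removing the trend of each library left 7061 of the 7613 calls (92.7%) in the same direction, with 4064 genes higher and 3288 lower in all. Whether RNA quality went with the slope was not tested, as no measure of it is in the files used.

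Genes called in the other 9 fish separated a left-out fish as well. For each fish the test was run without it, and the left-out fish was read on those genes. It lay on its own run's side of the midpoint between the run means for 80.4% to 91.1% of genes in JM132-JM136 and for 77.7% to 92.7% in JM140-JM144. JM135 (80.4% of 7495 genes) and JM141 (77.7% of 7673) were lowest in their runs, and they were also the fish whose removal left the most calls. On a scale from 0 at the JM140-JM144 mean to 1 at the JM132-JM136 mean, the median gene lay at 0.882 to 0.9998 in left-out fish of JM132-JM136 and at -0.0547 to 0.119 in those of JM140-JM144. No left-out fish lay midway between the runs.

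Which run varied more between its fish depended on single fish, and 1 fish in each run carried a set of strongly raised genes. The median SD of log2 CPM over 5 fish was 0.286 in JM132-JM136 and 0.272 in JM140-JM144, and 53.4% of genes had the larger SD in JM132-JM136. This share was 42.6% without JM135, which turned the direction, and 63.7% without JM141. Without JM135 the first was 0.233, and without JM141 the second was 0.231. The common biological coefficient of variation in edgeR, the spread of a gene's true level between fish relative to its mean, was 0.335 in JM132-JM136 and 0.313 in JM140-JM144. It was 0.311 in JM132-JM136 without JM135. It was 0.218 in JM140-JM144 without JM141, and 0.322 to 0.328 there without any other fish.

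JM133 exceeded all 4 other fish of its run by more than 4-fold in 156 genes, and the other fish of JM132-JM136 did so in 1 to 26. JM141 did so in 245 genes, and the other fish of JM140-JM144 in 0 to 5. The lists, of 156 and 245 among 18306 genes tested, shared 7 genes, 4.49% of the JM133 list and 2.86% of the JM141 list. Each of these shares exceeded the share of all tested genes that stood in the other list (245 and 156 of 18306). Whether lists of these sizes would share fewer genes by chance was not tested. Members were chosen for their level in that fish, so its level is no finding.

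Read in the run that did not choose them, both lists varied between fish. The 245 JM141 genes were higher in JM133 and JM136 than in the mean of the other 4 fish of JM132-JM136, by a median of 1.17 and 1.35 on the log2 scale, with 213 and 211 genes above. They were lower in JM132 and JM134, by medians of -1.27 and -1.57, with 50 and 22 genes above. Over all tested genes the same median was -0.00475 to 0.00704 in the 5 fish, where TMM holds it near 0. It says little about genes picked for a raised level in 1 fish. The median level was 3.40 CPM for the JM141 genes and 2.86 CPM for the JM133 genes, against 11.1 CPM over all tested genes. The 156 JM133 genes were higher in JM144 and JM141 than in the other fish of JM140-JM144, by medians of 0.85 and 0.40, with 79.5% and 69.2% of genes above. Each of these is 1 fish, so there is no replicate of the value.

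**Figure D5:**
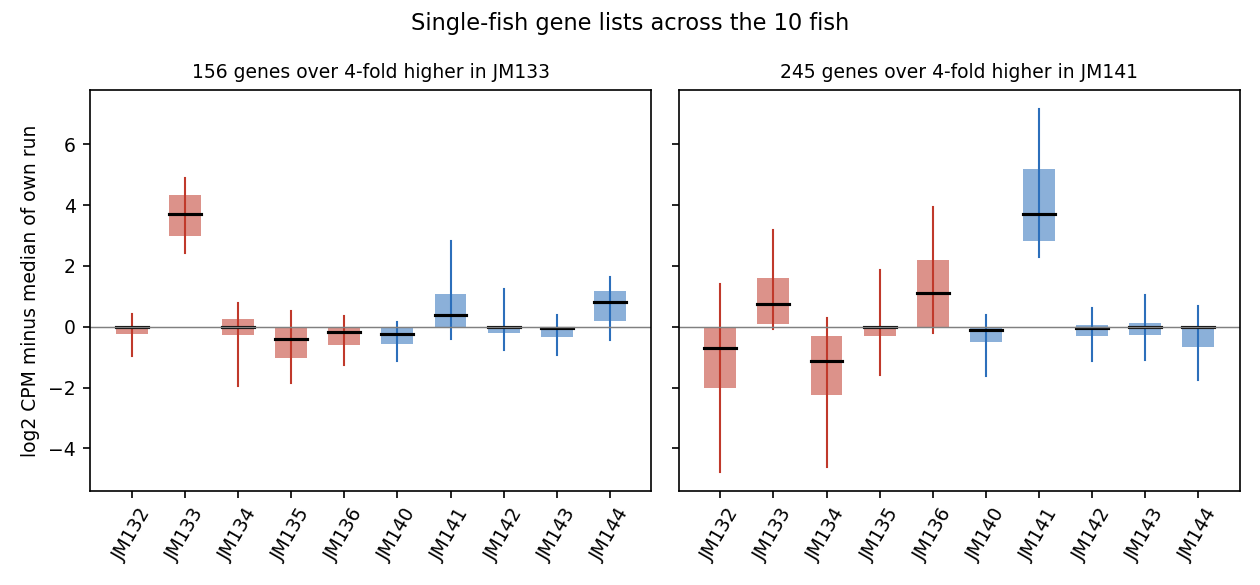
Log2 CPM minus the gene's median in its own run (y axis) for the 156 JM133 genes and the 245 JM141 genes in each fish; boxes span the quartiles, lines the 5th to 95th percentile and black bars the median. Outside the fish that chose them, the JM141 genes are raised in JM133 and JM136, and the JM133 genes in JM144 and JM141.

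Genes in neighbouring rows of the deposited table differed between the runs somewhat alike. Across 13784 pairs of tested genes in adjacent rows, Pearson's r of the log2 fold changes was 0.14. It was 0.04 over 13319 pairs 2 rows apart and 0.01 over 12983 pairs 5 rows apart. The sources used here do not say whether the row order follows the genome, and genes that overlap or have close copies may share reads. All pairs share the same 10 libraries, and the correlation is a description.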

How the data were processed

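Per the labels' protocols, skin RNA libraries were made with the TruSeq RNA kit v2. The submitters' processing notes name STAR 2.4.1d, featureCounts 1.4.6-p4 and bcl2fastq 1.8.4. The sources used here give no genome build or annotation and do not say how strand or multiple matches were treated. The deposited counts are whole reads per gene, with no normalization. The deposited RPKM values were used for gene lengths alone: counts divided by RPKM were constant across libraries (SD of the natural log under 0.001) in 100% of 10452 genes if the totals of the 20 libraries were reused in turn down the rows, and in 0% with each library's own total.

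Counts were tested with edgeR 4.0.16 in R 4.3.3 (TMM, its expression filter by run, robust quasi-likelihood fit, Benjamini-Hochberg adjustment, threshold 0.05). Fold changes are JM132-JM136 over JM140-JM144. Standard errors are absolute log2 fold changes over the square root of F. CPM is TMM-scaled over the 10 libraries, and log2 CPM used a prior count of 2. At 1 CPM before scaling a gene has 20.6 to 38.6 counts. Library measures were compared with exact permutation tests (smallest p 0.00794). Libraries of a run differed beyond sampling noise in all 20 pairs (chi-square over its degrees of freedom at least 34.3), and each was counted once. Named identifiers are the 2 in each direction with adjusted p under 0.05, no overlap between runs and the largest difference of mean CPM. The division into runs by title, the lists and the tests were chosen with earlier results of these data known. Alternatives were DESeq2 1.42.0, limma-voom (limma 3.58.1), other scalings and filters, thinning, length correction and leaving out each fish. The test was checked on simulated counts. Marker lists needed gene names and were not run.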

Additional observations from a re-analysis of the deposited data

Results flagged for a closer look

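In 26 checks of single fish against the other 4 of their run, where chance gives about 1.3 flags, 2 values were flagged. The limit was a gap to the nearest fish of 0.71 of the range in the run. The checks share fish and are not independent, so the chance count is only a guide. On principal component 2, JM141 had a score of 85.63, and the nearest other fish of JM140-JM144 had -15.02, a gap of 0.946 of the range. That component was computed from these same fish, so the flag is a description. JM135 had the low value of Nfu_g_1_000192 in JM132-JM136, 8.327 on the log2 CPM scale, with the next fish at 9.05. That gap was 0.715 of the range, only just over the limit. Without JM135 the gene was still called.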

How the results depend on the processing

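The 7613 calls became 6768 to 7673 when any 1 fish was left out, and 5923 genes (77.8%) were called in the same direction in all 10 of those fits, 3272 higher and 2651 lower. DESeq2 called 8295 genes and limma-voom 7556. Other filters, thinning, length correction and DESeq2's size factors gave 7299 to 7586, with 92.7% to 99.0% of the 7613 kept and 0 reversed. The 4 named identifiers kept direction and call in all 18 settings, but their sizes moved with scaling. Under library totals the runs overlapped in Nfu_g_1_008116, as given above. Under library totals the log2 fold change was -0.33 for Nfu_g_1_012319 (edgeR adjusted p = 0.0271) and -0.63 for Nfu_g_1_008116 (edgeR adjusted p = 0.0302). For Nfu_g_1_008461 and Nfu_g_1_000192 it rose to 2.64 and 1.88.

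Scaling by library totals, chosen after the data were seen, gave 5869 higher and 1643 lower genes and kept 72.7% of the calls. It left 232 lower genes in the highest decile of level, 539 in the longest length bin and 20 among the 100 most read, and 1495 higher genes in the shortest bin. The libraries' TMM factors differed between the runs as given above. No value here shows which scaling is closer to RNA per cell, which was not measured.

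Leaving out each fish gave 0 to 1 higher call among the 100 most read genes, a median SD of 0.233 to 0.293 in JM132-JM136 and 0.231 to 0.275 in JM140-JM144, and a difference in the share of the 100 highest genes of -5.73 to -3.87 points. With 4 against 5 fish, fewer splits exist, so smaller p-values are out of reach. No paired analysis was possible because the runs share no title number.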
